A study of Mus musculus with 2 samples.

Results

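The cells described here are 541 mouse embryonic stem cells out of 2705 kept from a culture called LBPXRS. They were the 20% of cells in which the largest share of UMIs (unique molecular identifiers, each standing for 1 captured RNA molecule) came from Lin28a, Tcf7l1, Tle4, Eprn and Ptgfrn together. The other 2164 kept LBPXRS cells served for comparison. Kept cells had at least 1000 detected genes and at most 10% of UMIs from mitochondrial genes, which left out 406 of 3111 barcodes. The study held 2 single-cell libraries of R1 mouse embryonic stem cells, 1 per condition, each taken after 72 hours in N2B27 medium. LBPXRS cells grew on fibronectin with LIF, BMP4, PD0325901 (a MEK inhibitor), Xav939 (a tankyrase inhibitor that lowers WNT signalling), Resorcyclic lactone and SB431542 (an inhibitor of the NODAL and activin receptors). LB cells, of which 1783 were kept, grew on gelatin with LIF and BMP4 alone. With 1 library per condition, medium, substrate and library cannot be told apart, and no test across samples was possible. The intervals below are exact 95% intervals of counting error alone and leave out differences between cultures.

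LIN28A is an RNA-binding protein that blocks the maturation of let-7 microRNAs and is abundant in pluripotent cells, most of all as they leave the naive state. TCF7L1 is the DNA-binding TCF factor that represses WNT and pluripotency genes in embryonic stem cells until beta-catenin displaces it, and TLE4 belongs to the Groucho corepressors that TCF factors recruit. Ptgfrn encodes a cell surface protein of the immunoglobulin superfamily that associates with tetraspanins. Eprn is a long noncoding RNA gene.

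All 5 genes lie on the minus strand in GRCm38. Lin28a spans chr4:134003330-134018841, Tcf7l1 chr6:72626378-72789254, Tle4 chr19:14448150-14598051, Ptgfrn chr3:101040232-101110278, and Eprn, annotated as a lincRNA, chr13:73344665-73347384. The promoters of Lin28a and Tcf7l1, which give the cells their working name, and of Eprn, which had the highest fold of the 5 under the rule, are shown because TCF factors recognise a short core written CTTTGA or CTTTGT. Each runs 5′ to 3′ on the gene's strand from 250 bases before to 50 bases after the RefSeq start (GRCm38.p6), with matches to either core, on either strand, in capitals. The windows are chr4:134018767-134019066 for Lin28a, chr6:72788996-72789295 for Tcf7l1 and chr13:73347335-73347634 for Eprn.
Lin28a: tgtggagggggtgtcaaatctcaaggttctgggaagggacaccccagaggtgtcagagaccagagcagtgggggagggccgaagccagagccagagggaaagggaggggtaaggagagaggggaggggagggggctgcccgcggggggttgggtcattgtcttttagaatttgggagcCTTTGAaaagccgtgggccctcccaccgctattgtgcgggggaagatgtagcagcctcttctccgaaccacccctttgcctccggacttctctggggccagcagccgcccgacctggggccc
Tcf7l1: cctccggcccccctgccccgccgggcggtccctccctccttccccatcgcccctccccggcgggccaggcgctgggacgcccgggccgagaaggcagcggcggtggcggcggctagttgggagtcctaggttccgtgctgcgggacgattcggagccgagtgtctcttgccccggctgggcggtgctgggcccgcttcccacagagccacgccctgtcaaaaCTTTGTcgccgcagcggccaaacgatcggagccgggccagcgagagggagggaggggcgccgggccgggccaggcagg
Eprn: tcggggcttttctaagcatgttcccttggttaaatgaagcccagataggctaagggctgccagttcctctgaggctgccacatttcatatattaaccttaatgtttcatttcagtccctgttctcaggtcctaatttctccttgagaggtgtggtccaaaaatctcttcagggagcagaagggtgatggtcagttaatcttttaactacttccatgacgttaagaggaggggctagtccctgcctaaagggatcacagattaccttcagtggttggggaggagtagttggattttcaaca
Lin28a held 1 match at position -72 from its start and Tcf7l1 held 1 at position -28, while the Eprn window held none. Windows of Tle4 (2 RefSeq promoters) and Ptgfrn held none either. Of 32851 RefSeq promoters of this length, 10249 (31.2%) held a match, so these letters are common. A match is a description of the window and no sign of binding.

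The score that chose the cells was the number of UMIs from the 5 genes per 1000000 UMIs of the cell. Members had a median score of 266 and reached 817, against a median of 62.1 in the others, of which 622 (28.7%) had a score of 0. The cells formed a continuous range, not a separate group. The lowest member and the highest non-member both stood at 188, with 75 members within 10% above the cut and 88 others within 10% below it. The score rested on few molecules: members held a median of 5 UMIs from the 5 genes (range 1 to 16) and the others a median of 1 (0 to 6). Of the members, 15 had a single such UMI, and their median depth was 3815 UMIs.

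**Figure D1:**
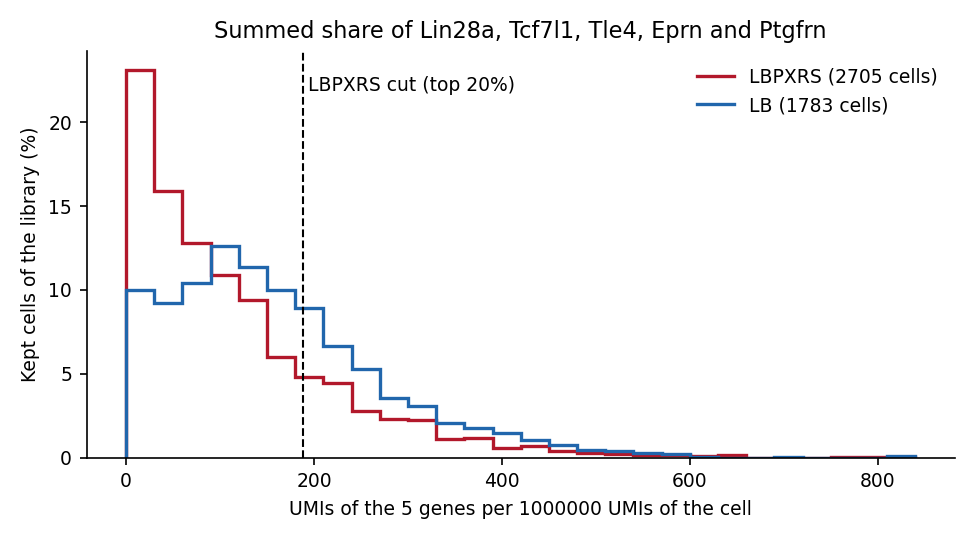
Share of the kept cells of each library, in percent, by score, in UMIs of the 5 genes per 1000000 UMIs of the cell, with the LBPXRS cut drawn as a line; cells above the plotted range are counted in the last bin. The LBPXRS cells run through the cut at 188 without a gap, and the LB cells lie higher, with a median of 140 against 85.7.

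Members were slightly shallower than the other cells and held more mitochondrial RNA. Their medians were 18362 UMIs and 3886 genes, those of the others 19368 UMIs and 3775 genes. After each cell was thinned to 5000 UMIs, members had a median of 1749 genes and the others 1679. The mitochondrial share had a median of 2.94% in members and 2.42% in the others. Ribosomal protein genes gave 35.9% against 38.2%. Cells with under 0.5% mitochondrial UMIs made up 2.77% of members (15 cells, 1.56 to 4.53) and 7.07% of the others (153 cells, 6.03 to 8.23). Scrublet marked 2 members and 12 others as doublets. The 2 libraries shared 10 barcodes, 2 of them on members. The part of these differences in the results below was not tested beyond the values given beside each.

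The genes of the rule stood higher in members by construction, and their levels are a description. CPM below is UMIs summed over a pool of cells scaled to 1000000 UMIs of that pool. Lin28a was at 52.7 CPM (48.3 to 57.4) in members and 11.8 (10.8 to 12.9) in the others. Tcf7l1 was at 84.3 CPM (78.7 to 90.1) against 24.4 (22.9 to 25.9), and Tle4 at 40.2 (36.3 to 44.3) against 11.5 (10.5 to 12.6). Eprn was at 70.9 CPM (65.7 to 76.3) against 10.3 (9.38 to 11.3), and Ptgfrn at 40.7 (36.8 to 44.8) against 12.4 (11.3 to 13.5). Tcf7l1 gave 29.2% of the members' UMIs from the 5 genes, Eprn 24.5%, Lin28a 18.2%, Ptgfrn 14.1% and Tle4 13.9%. In the others Eprn gave 14.7%.

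Most members carried several of the genes, but few carried all. UMIs of all 5 genes were found in 31 members, of 4 in 126, of 3 in 212, of 2 in 134 and of a single gene in 38. Tcf7l1 gave the most UMIs in 129 members, Eprn in 110, Lin28a in 60, Ptgfrn in 50 and Tle4 in 45, and 147 had no single leading gene.

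Whether the 5 genes were high in the same cells was measured with each gene left out of the choice. In the 541 cells chosen by the other 4 genes, each left-out gene was still higher than in the remaining cells, by a smaller fold than under the full rule. Eprn stood 2.34-fold higher (2.06 to 2.64), at 41 CPM against 17.6. Lin28a stood 2.15-fold higher (1.88 to 2.45), at 34.9 CPM against 16.2. Tle4 was 1.77-fold higher (1.53 to 2.05), Ptgfrn 1.73-fold (1.5 to 2) and Tcf7l1 1.72-fold (1.55 to 1.9). The corresponding folds under the full rule were 6.86 for Eprn, 4.45 for Lin28a, 3.48 for Tle4, 3.29 for Ptgfrn and 3.45 for Tcf7l1. The 5 genes were proposed together from these data, so these folds are not independent evidence that they belong together.

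Splitting each cell's UMIs at random, choosing the cells in 1 part and measuring in the other equal part gave similar sizes. Eprn was then 2.59-fold higher (2.17 to 3.09), Lin28a 2.03-fold (1.68 to 2.45), Ptgfrn 1.91-fold (1.55 to 2.34), Tcf7l1 1.85-fold (1.6 to 2.13) and Tle4 1.84-fold (1.49 to 2.27). Of the 541 cells chosen in that way, 378 (69.9%) were members under the full rule. Between cells with and without a UMI of 1 gene, the level of another differed by folds from 1.15 to 2.09 over the 20 ordered pairs, with a median of 1.29. Cells with such a UMI were slightly deeper, at 19163 to 20488 UMIs in the median against 18101 to 19011. The interval, of counting error alone, lay above 1 in 19 of the 20 pairs. The highest values, 2.09 and 2.04, were those of Eprn with Lin28a, and the lowest, 1.15 (0.997 to 1.32), was Ptgfrn by Lin28a. As the genes of the rule were proposed together from these data, neither the split folds nor the pairs are independent evidence that they belong together. Whether pairs of other genes differ by similar folds was not tested.

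**Figure D2:**
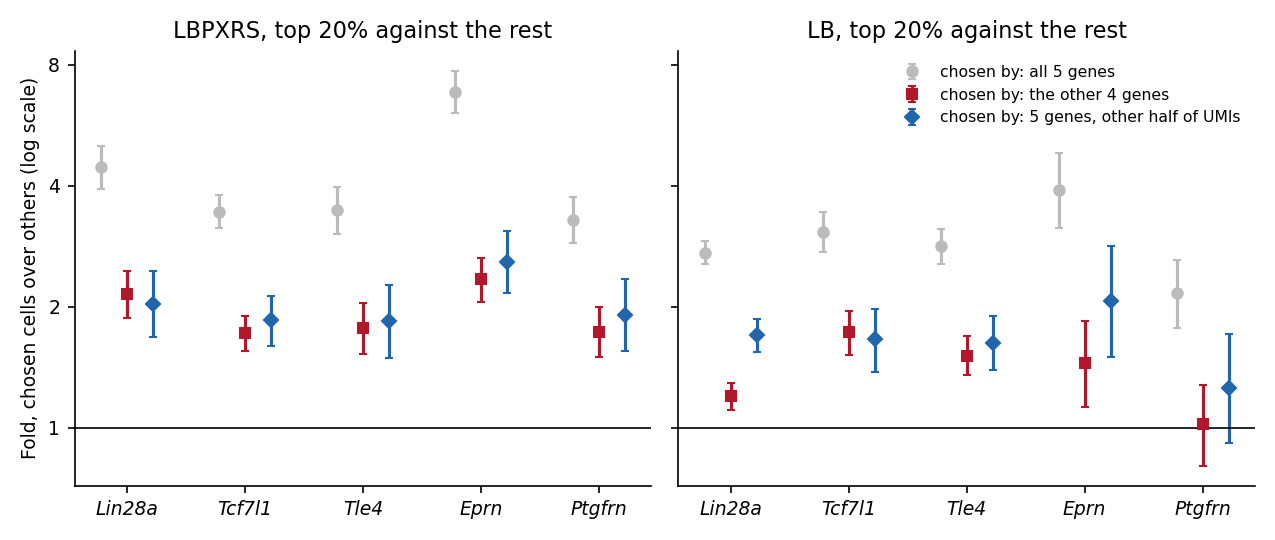
Fold of each gene in the chosen 20% of cells over the other cells of the same library, on a log axis, under the full rule, with cells chosen by the other 4 genes, and with cells chosen in the other part of the split UMIs; bars are 95% counting intervals. Every LBPXRS fold drops from the full rule to the other 2 views and stays above 1, while in LB the fold of Ptgfrn chosen by the other 4 genes is 1.02.

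The same score was computed in LB. LB cells had a median score of 140 (quartiles 78 to 220), and 594 of them (33.3%, 31.1 to 35.6) reached the LBPXRS cut. Lin28a was at 85.7 CPM over LB cells and Tle4 at 34.9, whereas Tcf7l1 was at 26.6, Ptgfrn at 10.1 and Eprn at 7.8. These are levels over all LB cells, not over cells chosen for the genes, so they are not set against those of the members. The top 20% of LB by its own scores was 357 cells above 243. Chosen by the other 4 genes in LB, Tcf7l1 was 1.73-fold higher (1.52 to 1.95), Tle4 1.51-fold (1.35 to 1.69), Eprn 1.45-fold (1.13 to 1.84), Lin28a 1.2-fold (1.11 to 1.29) and Ptgfrn 1.02-fold (0.804 to 1.28). Of the 20 ordered pairs in LB, 10 had an interval above 1, and Ptgfrn by Eprn was at 0.629. The difference between the libraries in these folds was not tested.

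Outside the 5 genes, members differed from the other LBPXRS cells in a modest number of genes. Of 4890 genes with at least 20 CPM in either pool, 113 were at least 1.5-fold higher in members (2.31%) and 41 at least 1.5-fold lower (0.838%). Ratios are log2 of CPM with 1 added to both, which understates the change of low genes, and genes were called by size alone. At 1.25-fold, 770 were higher (15.7%) and 198 lower (4.05%). The median log2 ratio of all genes was 0.097. After median-ratio scaling, which sets that median to 0, 41 genes were higher and 70 lower. When the top 20% was taken within 10 bins of mitochondrial share, 27 genes were higher and 24 lower, 26 and 24 of them among those of the full choice. When cells were thinned to 5000 UMIs before the choice, 61 were higher and 32 lower, 18 and 17 of them among those of the full choice. The median ratio ran from -0.0038 in the quintile of genes with the shortest transcripts to 0.25 in the quintile with the longest. The higher genes had a median longest transcript of 4764 bases, the lower genes 2125 and all genes 2850, and the part of length in the calls was not tested.

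Id1, a BMP-induced inhibitor of basic helix-loop-helix factors, had the highest ratio, at 35.5 CPM (31.9 to 39.4) in members and 13.6 (12.5 to 14.8) in the others, a log2 ratio of 1.32, or 0.81 with split UMIs. Its relative Id2 was at 54.3 CPM (49.8 to 59) against 28.4 (26.8 to 30), a log2 ratio of 0.91. Ccn1, which encodes a matricellular protein, was at 36 CPM against 16.4 (1.09), and Ajuba, which encodes a LIM protein of cell junctions, at 34.7 against 17 (0.99). Fasn, the fatty acid synthase gene, was at 46.1 CPM against 23.6 (0.94). Dnmt3l, the cofactor of the de novo DNA methyltransferases, was at 21.3 CPM against 10.9 (0.91), and its ratio was 0.31 after thinning and 0.51 with split UMIs, both within 1.5-fold. L1td1, which encodes an RNA-binding protein of pluripotent cells, was at 65 CPM against 36.1 (0.83).

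The remaining genes among the 12 highest were 1190005I06Rik (0.91), the transcription elongation factor gene Tcea3 (0.85), the imprinted zinc finger gene Peg3 (0.83), the basement membrane collagen gene Col4a1 (0.83) and the golgin gene Golga3 (0.81). Golga3 had the highest level of the 12, at 120 CPM (113 to 127) in members and 67.9 (65.4 to 70.4) in the others. The intervals of the 2 pools did not overlap for any of the 12, but these were chosen for the highest ratios, so that adds no support. Id1, Ccn1, Ajuba, Dnmt3l and 1190005I06Rik reached the minimum of 20 CPM in members only. When cells were thinned to 5000 UMIs before the choice, 5 of the 12 were within 1.5-fold: Dnmt3l, Ajuba (0.51), Id2 (0.56), Tcea3 (0.46) and Col4a1 (0.46). With split UMIs, 3 were, Dnmt3l, 1190005I06Rik (0.52) and Tcea3 (0.52). Beneath the minimum of 20 CPM, Foxd3, a forkhead transcription factor gene of pluripotent cells, was at 19.5 CPM in members against 8.25 in the others (1.15, or 0.72 after thinning). Grhl2, which like Foxd3 is in the list of formative and primed genes below, went the other way, at 2.6 CPM against 6.36 (-1.03).

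Gata2, which encodes a zinc finger transcription factor of blood and trophoblast, had the lowest ratio. It was at 5.1 CPM (3.8 to 6.7) in members and 32 (30.3 to 33.7) in the others, a log2 ratio of -2.43. Aqp3, the aquaglyceroporin gene, was at 26.5 CPM (23.4 to 29.9) against 63.9 (61.5 to 66.4), a ratio of -1.24. Cyba, which encodes a subunit of NADPH oxidases, was at 55.8 CPM against 121 (-1.10). The genes of the calcium-binding proteins S100A1 and S100A13 were low together, S100a1 at 19.9 CPM against 45.8 (-1.16) and S100a13 at 44.4 against 94.2 (-1.07). Dusp1, a phosphatase of MAP kinases, was at 11.4 CPM against 27.6 (-1.20), and Ifi30, a lysosomal thiol reductase, at 30.4 against 60.8 (-0.98). The others of the 12 lowest were Gstt2 (-1.34), Ahnak2 (-1.21), Adssl1 (-1.12), Fkbp6 (-1.11) and Fxyd2 (-0.96). After thinning, 1 of the 12 was within 1.5-fold, Aqp3 at -0.58, while Dusp1, Cyba and Gstt2 were at -0.72, -0.69 and -0.69, and with split UMIs none was. Within 10 bins of mitochondrial share Ifi30 was, at -0.55.

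The counts were also taken without the 20% of LBPXRS cells highest in Gata2 and Aqp3, a set that held 50 of the members, in a comparison added after the data were seen. Its members were chosen anew from the 2164 cells left, as their top 433. Then 66 genes were higher and 11 lower. The ratio of Gata2 was -0.38 and that of Aqp3 -0.053, as that choice removes the cells high in those genes, and 6 of the 12 lowest genes were within 1.5-fold.

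**Figure D3:**
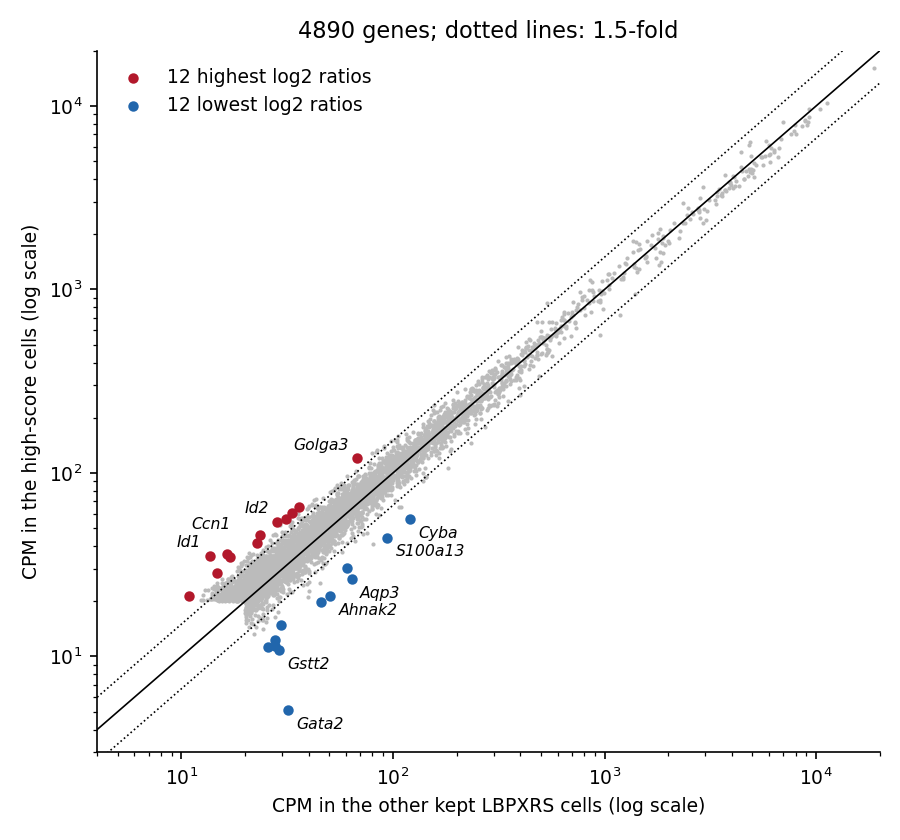
CPM of each of 4890 genes in members against the other kept LBPXRS cells, both axes logarithmic, with the 12 highest and 12 lowest ratios in colour, some of them named, and the rule genes left out. Gata2, at 5.1 CPM against 32, lies farthest from the diagonal on the low side and Id1, at 35.5 against 13.6, on the high side.

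Some of these genes followed the score over all quintiles and others differed mainly in the upper ones. Over the 5 quintiles of LBPXRS cells from lowest to highest score, Id1 was at 7.59, 11, 13.2, 21.6 and 35.5 CPM, the last being the members. Foxd3 went from 5.19 CPM in the lowest quintile to 19.5 in members. Id2 was level over the lower quintiles and higher in the upper ones, at 26.3, 25.2, 25, 37.2 and 54.3 CPM. Ajuba was likewise at 15.3, 14.1, 16.2, 22.5 and 34.7 CPM, and Col4a1 showed no even order, at 29.7, 23.9, 36.4, 35 and 56.1. Gata2 was at 61.3, 39.6, 24.1, 9.27 and 5.1 CPM, and Aqp3 at 106, 67.3, 52.2, 40.6 and 26.5. Cells with a score of 0 filled the lowest quintile and part of the next and were ordered by depth, so these quintiles differ in depth, with medians of 16108, 21949, 20363, 18404 and 18362 UMIs. The mitochondrial share had medians of 2.29, 2.12, 2.47, 2.72 and 2.94% over the same quintiles.

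**Figure D4:**
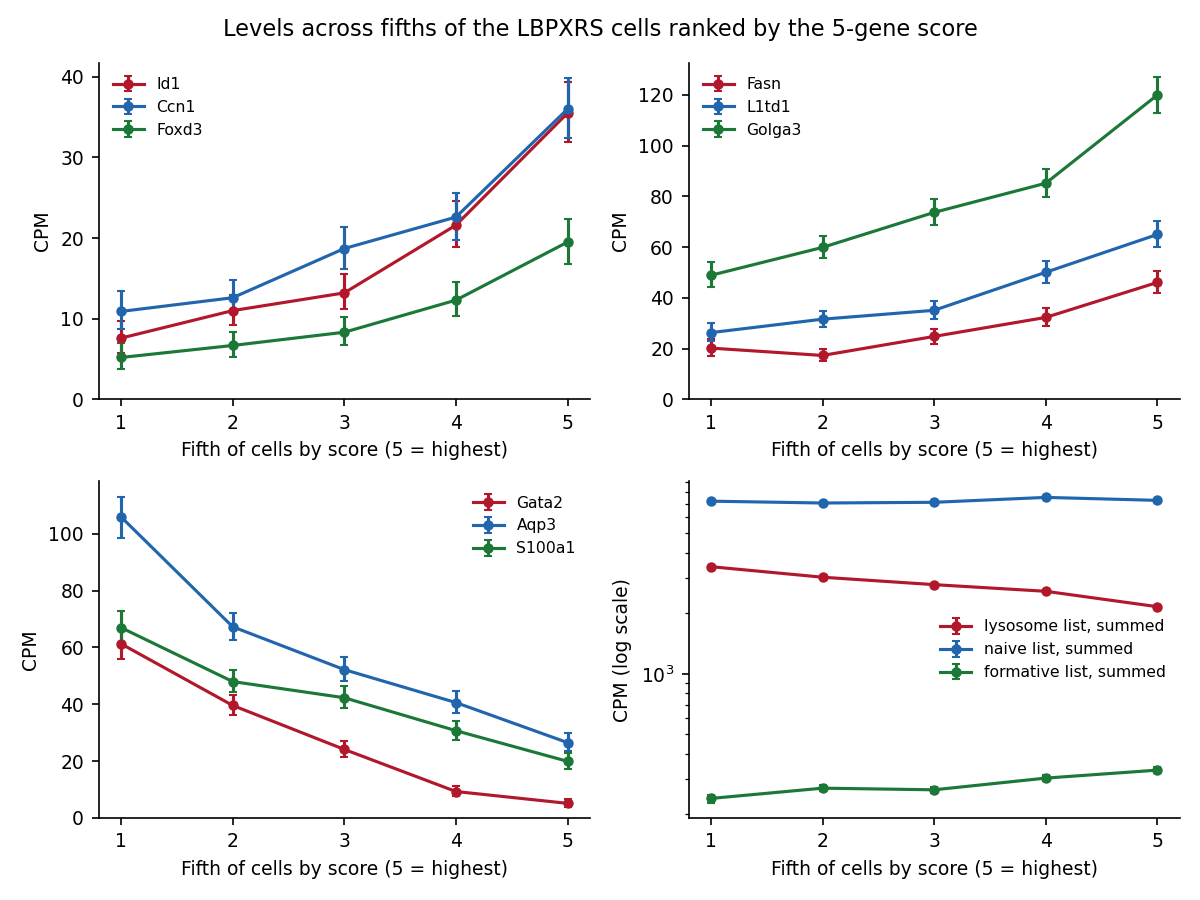
CPM with 95% counting intervals over the quintiles of LBPXRS cells by score, the quintile holding the members last, for named genes and summed gene lists. Id1 climbs from 7.59 to 35.5 CPM while Gata2 goes from 61.3 to 5.1, and the summed naive list stays between 7083 and 7553 CPM.

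The summed level of 17 naive genes was 7301 CPM in members and 7244 in the others, a log2 ratio of 0.011 (-0.00043 to 0.023). None of the 14 measured ones was 1.5-fold higher or lower, 3 were at least 1.25-fold higher and none that much lower, and their median ratio was 0.01 against 0.097 over all genes. At 1.25-fold, 15.7% of all genes were higher and 4.05% lower. Within the list Zfp42, a marker of naive cells, was at 662 CPM against 480 (0.46), and Nanog at 220 against 167 (0.40), while Nr0b1 was at 27.5 against 33.5 (-0.28) and Klf2 at 317 against 341 (-0.11). Nr5a2, under the minimum, was at 13.6 CPM against 8.15 (0.67). After thinning Zfp42 was at 0.29 and Nr5a2 at 0.35. Dppa5a, at 4864 CPM against 5069, made up most of the sum, and without it the other 16 genes summed to 2437 CPM against 2176, a ratio of 0.16 (0.14 to 0.18) in a comparison added after the data were seen. The 16 formative and primed genes summed to 332 CPM against 271, a ratio of 0.29 (0.24 to 0.35), which was 0.17 after thinning and 0.19 with median-ratio scaling. None of the 3 measured ones was 1.5-fold higher or lower: Otx2 was at 45.8 CPM against 36.5 (0.32), Utf1 at 96.7 against 69 (0.48) and Tead2 at 119 against 113 (0.065). Their median was 0.32. Under the minimum the list held genes on both sides, among them Foxd3 at 19.5 CPM against 8.25 (1.15) and Grhl2 at 2.6 against 6.36 (-1.03). Fgf5 and Sox3, which mark primed cells, had 0 UMIs in members and 1 and 5 in the larger pool of other cells, near 0 in both.

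Core factors were mixed. L1td1 was the single one of 7 measured that passed 1.5-fold, on the high side, as 2.31% of all genes did. Sall4 was at 78.1 CPM against 54.6 (0.51) and Sox2 at 286 against 219 (0.39). After thinning the ratios of Sall4 and Sox2 were 0.17 and 0.10. Pou5f1, which encodes OCT4, was at 961 CPM against 997 (-0.053), and Tdgf1, the lowest measured one, at 250 against 305 (-0.28). The list summed to a ratio of 0.035 (0.011 to 0.059), which turned to -0.064 with median-ratio scaling, -0.017 for the top 10% of cells and -0.021 without the cells highest in Gata2 and Aqp3, so the sum has no stable direction. The median over the measured genes was 0.39.

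The list of LIN28 and let-7 pathway genes without Lin28a summed to 542 CPM against 411, a log2 ratio of 0.40 (0.36 to 0.44), which was 0.17 after thinning. It had 2 of 6 measured genes at least 1.5-fold higher, none lower and a median of 0.40. The shares over all genes were 2.31% higher and 0.838% lower. Trim71, a let-7 target that encodes an RNA-binding ubiquitin ligase, was at 67.5 CPM against 41.5 (0.69). Igf2bp1, a let-7 target that encodes an RNA-binding protein, was at 149 CPM against 97.9 (0.60). After thinning both were within 1.5-fold, at 0.26 and 0.30, as they were within 10 bins of mitochondrial share, at 0.48 and 0.44. Mycn was at 106 CPM against 78.4 (0.42), and Tut4, whose product adds uridines to precursor let-7 with LIN28, at 29.4 against 22.3 (0.38). The paralog Lin28b was at 0.899 CPM in members and 2.01 in the others. The let-7 RNAs themselves are not captured by this assay.

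The partners of TCF7L1 and TLE4 differed less. Without those 2 genes the list of TCF factors, TLE corepressors and beta-catenin summed to 529 CPM against 462 (0.19, interval 0.15 to 0.24), none of 5 measured genes passed 1.5-fold, and their median was 0.18. The summed ratio was 0.095 with median-ratio scaling, 0.12 after thinning and 0.11 within 10 bins of mitochondrial share. Ctnnb1, the beta-catenin gene, was at 87.1 CPM against 66.8 (0.38), Tcf7l2 at 24.4 against 19.8 (0.29) and Tcf7 at 31.7 against 27.9 (0.18). Tle3 was at 53.3 CPM against 51.4 (0.051), and Tle5 at 282 against 255 (0.14). The WNT feedback targets gave 94.8 CPM in members and 67.8 in the others (0.48, interval 0.38 to 0.59), most of it from Ccnd1 at 77.1 against 54.3 (0.50). After thinning that sum had a ratio of 0.28. Axin2 was at 1.4 CPM against 0.383 (14 and 16 UMIs) and Sp5 at 0.0999 against 0.12 (1 and 5 UMIs).

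BMP targets were split. Of 5 measured, Id1 and Id2 were at least 1.5-fold higher and Gata2 lower, against 2.31% and 0.838% of all genes. Id1 reached the minimum of 20 CPM only in members and Gata2 only in the others, so each was measured through the pool where it was high. The list summed to 213 CPM against 161 (0.40, interval 0.33 to 0.48), with a median of 0.45. The summed ratio was 0.23 after thinning and 0.21 with split UMIs. Id3 was at 12 CPM against 4.97 (1.12) and Gata3 at 15.2 against 5.93 (1.22), both under the minimum. The ratio of Id3 ran from 0.75 to 2.00 over the alternatives, and that of Gata3 was 0.63 with split UMIs. Smad7, an inhibitor of BMP and TGF-beta signalling, was at 34.1 CPM against 30.4 (0.16), and Bambi, which encodes a pseudoreceptor, at 27.9 against 20.2 (0.45).

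The list of DNA methylation genes summed to a log2 ratio of 0.30 (0.25 to 0.35), with 2 of 6 measured genes at least 1.5-fold higher, Dnmt3l and Tet2 (35 CPM against 22.9, 0.59), none lower and a median of 0.28. Of all genes, 2.31% were that much higher and 0.838% lower. Dnmt3l, at 21.3 CPM against 10.9, reached the minimum of 20 CPM only in members. After thinning both of the higher genes were within 1.5-fold, Dnmt3l at 0.31 and Tet2 at 0.34, and with split UMIs Dnmt3l was, at 0.51. Within 10 bins of mitochondrial share Tet2 was at 0.39. The list's summed ratio was 0.20 after thinning. The maintenance genes Dnmt1 (58.7 CPM against 49.2, 0.25) and Uhrf1 (132 against 116, 0.19) differed less. The de novo enzymes Dnmt3a and Dnmt3b were under the minimum in both pools, at 7.9 CPM against 5.67 (0.42) and 8.1 against 4.85 (0.64), and the ratio of Dnmt3b was 0.048 after thinning.

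Lysosome genes were lower in members. All 16 measured genes lay below the median of all genes, 12 were at least 1.25-fold lower and 4 at least 1.5-fold lower, and none passed 1.25-fold on the high side. Over all genes, 4.05% were at least 1.25-fold lower and 0.838% at least 1.5-fold lower. The 19 genes summed to 2159 CPM against 2921, a ratio of -0.44 (-0.46 to -0.42), and the median was -0.48. Spp1, which encodes the secreted protein osteopontin and is counted in the list, gave 558 CPM of the sum in members and 698 in the others, and without it the ratio was -0.47 (-0.50 to -0.45). Hexa, a subunit gene of hexosaminidase, was at 107 CPM against 183 (-0.76), and the cathepsin genes Ctsb at 65.5 against 107 (-0.70) and Ctsl at 90.4 against 138 (-0.60). Lamp1, a lysosomal membrane protein gene, was at 265 CPM against 398 (-0.59), whereas Psap was at 127 against 130 (-0.042). After thinning the 4 genes at least 1.5-fold lower (Hexa, Ctsb, Ctsl and Lamp1) were within 1.5-fold, at -0.35, -0.39, -0.34 and -0.38. Within 10 bins of mitochondrial share the summed ratio was -0.31, and it was -0.17 when cells were thinned to 5000 UMIs before the choice.

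Of the cholesterol synthesis genes, 1 of 13 measured was at least 1.5-fold higher and none lower, against 2.31% and 0.838% of all genes. Hmgcs1, which acts early in the pathway, was that gene, at 79.5 CPM against 51.3 (0.62, but 0.28 after thinning, 0.54 with split UMIs and 0.50 within 10 bins of mitochondrial share), while Fdps was at 218 against 239 (-0.14). The list summed to a ratio of 0.18 (0.14 to 0.21), or 0.08 with median-ratio scaling, and its median was 0.34. Of 25 G2/M genes, 20 lay above the median of all genes and 1, Kif11, passed 1.5-fold at 35.6 CPM against 22.7 (0.63, but 0.57 after thinning, 0.47 with split UMIs and 0.45 within 10 bins of mitochondrial share). Their summed ratio was 0.23 (0.21 to 0.25), and that of S phase genes 0.13 (0.11 to 0.15). With median-ratio scaling these were 0.13 and 0.032, and with split UMIs 0.15 and 0.084. The G2/M sum was also 0.15 after thinning.

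**Figure D5:**
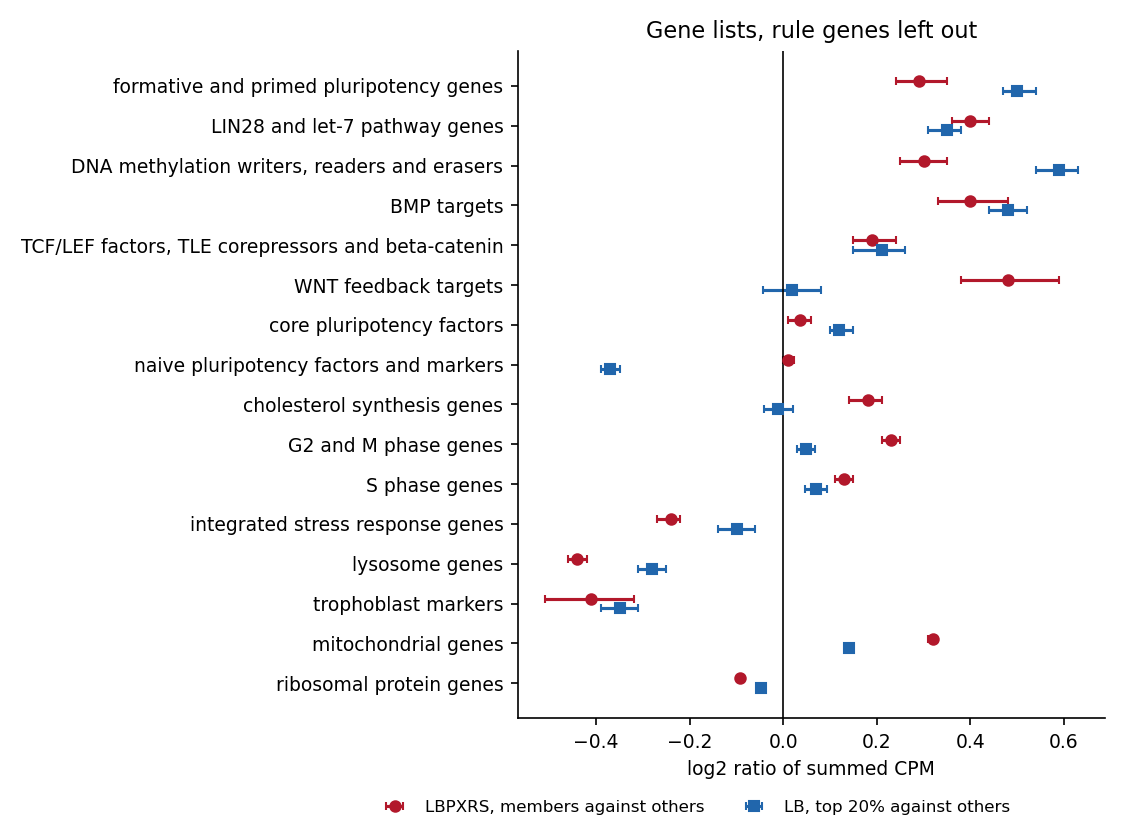
Log2 ratio of the summed CPM of each gene list, members over the other LBPXRS cells and top 20% over the rest of LB, with 95% counting intervals; the rule genes are left out of all lists. In LBPXRS the lysosome list lies at -0.44 and the LIN28 and let-7 list at 0.40, with the naive list at 0.011.

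Of 16 trophoblast markers, 2 were measured and Gata2 alone passed 1.5-fold, on the low side, as 0.838% of all genes did. The list summed to 110 CPM against 147 (-0.41, interval -0.51 to -0.32), while members of the list stood on both sides. Gata3 was at 15.2 CPM against 5.93 (1.22) and Eomes at 2.2 against 1.12 (0.59), higher in members though under the minimum, and Tfap2c, the other measured marker, was at 51.8 against 48.5 (0.093). Cdx2, Hand1 and Elf5 had no UMI in members and 1, 0 and 5 UMIs in the others. The same sum was 0.084 without the 20% of cells highest in Gata2 and Aqp3. Krt8 was at 4.6 CPM against 11.8 (-1.19) and Krt18 at 7.5 against 17.2 (-1.10), both under the minimum. Krt8 was high in 1 quintile of the score alone, at 29.9 CPM in the second, and between 2.91 and 4.92 in the rest. Without cells under 0.5% mitochondrial UMIs its ratio was 0.019, that of Krt18 -0.26 and the summed ratio -0.15.

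Of 15 primitive endoderm markers, 3 were measured and 2 were at least 1.5-fold higher, the collagen genes Col4a1 (56.1 CPM against 31.1) and Col4a2 (31.8 against 19.4, 0.69). Both were within 1.5-fold after thinning, at 0.46 and 0.15. Among all genes, 2.31% were at least 1.5-fold higher. Sparc, the third, was at 488 CPM against 454 (0.10). The defining transcription factors of that lineage were near 0 in members, with Gata4 at 0.999 CPM, Gata6 at 0.4 and Sox17 at 0.999. Of 11 neural markers, the 2 measured were Vax2 at 61.7 CPM against 67.9 (-0.14) and Hesx1 at 84 against 96.8 (-0.20), and the list summed to 164 CPM against 178 (-0.12). The 11 germ cell markers summed to 307 CPM against 264 (0.22), most of it from Rhox5 at 167 against 125 (0.41). The 9 fibroblast markers summed to 147 CPM against 129 (0.18), most of it from Fn1 at 120 against 105 (0.19), with Col1a2, Col3a1, Dcn and Lum at 0 in both pools. No measured gene of these last 3 lists was 1.5-fold higher or lower. The 15 primitive streak and mesoderm markers gave 94 UMIs in members, 9.39 CPM, and 301 UMIs in the others, 7.2 CPM, and none reached the minimum. The list of 2-cell embryo genes summed to 15 CPM in members and 15.9 in the others, but 147 of the 150 UMIs in members and 656 of the 665 in the others were of 1 gene, Ddit4l. The Zscan4, Tcstv and Usp17l genes listed, Duxf3 and Zfp352 had no UMI in either pool, so the sum says nothing of a 2-cell-like state.

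Members were not alike in every respect. By the gene with the most UMIs, Id1 was at 53.8 CPM (44.4 to 64.6) in Eprn-led members, 26.5 (20.3 to 33.9) in Tcf7l1-led and 21.3 (12.2 to 34.6) in Tle4-led ones. Id2 was at 88.5 CPM (76.3 to 102) in Eprn-led and 73.5 (58.5 to 91.1) in Lin28a-led members, against 34 (27 to 42.3) and 28 (17.3 to 42.7) in Tcf7l1-led and Tle4-led ones. Golga3 was at 158 CPM (142 to 174) in Tcf7l1-led and 43.9 (30.2 to 61.7) in Tle4-led members. In each of the 5 kinds Gata2 stayed between 1.77 and 7.56 CPM, the lysosome list between 1978 and 2521 CPM and the formative list between 296 and 346 CPM.

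Clusters made from LBPXRS cells without the 5 genes held members unevenly. They carry no names, and the shares describe where members lie. At Leiden resolution 0.5, a cluster of 822 cells held 305 members (37.1%, 33.8 to 40.5), which were 56.4% of all members, and its leading genes included Krt8, Col4a1 and Id1. A cluster of 775 cells led by Gata2 held 31 members (4%, 2.73 to 5.63). The other 5 clusters held between 12.8% and 27.2%. At resolution 1, the cluster with the highest share had 462 cells and 198 members (42.9%, 38.3 to 47.5), with Fasn, Foxd3 and Golga3 among its leading genes. A separate cluster of 253 cells led by Krt8 and Krt18 held 24.5%. The cluster of 577 cells led by Gata2 held 16 members (2.77%, 1.59 to 4.46).

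Members overlapped unevenly with cells high in genes of other programmes. Of the 541 members, 50 (9.24%, 6.94 to 12) were also in the top 20% by Gata2 and Aqp3, and 31 (5.73%, 3.93 to 8.04) in the top 20% by lysosome genes. The top 20% by Krt8 and Krt18 held 100 (18.5%), by Chac1 and Trib3 113 (20.9%), and by G2/M genes 143 (26.4%, 22.8 to 30.4). All these sets have the same size, 20% of the kept cells, so each share holds for both lists. A set unrelated to the score would hold about 20% of the members, and the Krt8 and Krt18 and the Chac1 and Trib3 sets lay near that share.

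Many of these genes lay on the same side in LB, where the top 20% was chosen by the same 5 genes from its own cells. There, 76 of 5082 genes were at least 1.5-fold higher (1.5%) and 42 lower (0.826%). Of the 113 genes higher in members, 88 were measured in LB. Among those, 82 (93.2%) lay above the LB median, against 50% of all genes there, and 21 were called in both. Those 21 are 18.6% of the LBPXRS list and 27.6% of the LB list. Of the 41 lower genes, 20 were measured in LB, all 20 lay below its median and 5 were called in both (12.2% and 11.9%). Id1 was at 262 CPM in the LB top cells against 153 in the rest (0.78), and Id2 at 86.2 against 50 (0.77). Gata2 was at 1.5 CPM against 1.74 there and Aqp3 at 2.36 against 2.99, both near the detection limit in either pool.

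Values of some lists stood apart in the 2 libraries, and the differences were not tested. The naive list had a ratio of -0.37 (-0.39 to -0.35) in LB, with 1 of 13 measured genes above the median, against 0.011 in LBPXRS. The formative list was at 0.50 (0.47 to 0.54) in LB, where Dnmt3b was at 214 CPM in the top cells against 90.4 in the rest (1.24) and Pou3f1 at 49.7 against 20.9 (1.21). In LBPXRS members Dnmt3b was at 8.1 CPM and Pou3f1 at 2.6. The lysosome list was at -0.28 in LB, and the LIN28 and let-7 list at 0.35.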

How the data were processed

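Droplet single-cell 3′ RNA libraries of R1 mouse embryonic stem cells, 1 per condition, were analysed. The deposited matrices hold UMI counts per gene and barcode, made with Cell Ranger 4.0.0 on mm10, per the submitters' processing notes, and are raw. The cell-calling settings and gene annotation version are not given in the sources used here. LBPXRS gave 51832444 UMIs over 2705 kept cells (median 19058 per cell) and LB 45490517 over 1783 (25418).

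Counts were summed over pools of cells and scaled to 1000000 (CPM), with Python 3.11.15, numpy 2.4.6, pandas 2.3.3 and scipy 1.17.1. Ratios used a pseudocount of 1 and genes with at least 20 CPM in either pool. Poisson and Clopper-Pearson intervals are exact, at 95%. Clusters used scanpy 1.11.5 (2000 variable genes, the 1 rule gene among them removed, 30 components, 15 neighbours). Scrublet-marked cells were kept, and its marking of 14 cells in LBPXRS may miss doublets. Identifiers were matched to GENCODE for positions and to RefSeq for promoters. Where no file states strand settings, overlapping genes may share reads.

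Named genes were the 12 highest and 12 lowest ratios, the rule genes and list members. The members of the set and all gene lists were chosen with earlier results of these data known. 1 gene of the cholesterol synthesis list is not reported here and was left out of its sums. Alternatives covered the minimum, pseudocount, scaling, depth, the share of cells taken, each rule gene left out, doublets, cell filters and cell cycle. The calling step was tested on simulated data.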

Additional observations from a re-analysis of the deposited data

Results flagged for a closer look

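The summed level of primitive streak and mesoderm markers had opposite signs in the libraries. In LBPXRS the members had 9.39 CPM and the others 7.2, a log2 ratio of 0.34 (0.035 to 0.72), from 94 and 301 UMIs over 15 genes. In LB the top 20% by the same score had a ratio of -0.46 (-0.52 to -0.41). Of the defining markers, T, Evx1, Hand1, Hand2 and Foxf1 had 0 UMIs in members and 3, 0, 0, 7 and 7 in the larger pool of other cells, near 0 in both. Eomes and Msx2 gave 22 and 26 of the 94. The difference between the libraries was not tested.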

How the results depend on the processing

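The count of genes at least 1.5-fold higher, 113, moved by over 1.5 times under these settings: 348 at a minimum of 5 CPM, 10 at 100 CPM, 41 with median-ratio scaling, 217 for the top 10% of cells, 61 after thinning, 68 when cells were chosen in 1 part of the split UMIs, 51 by mean rank, 27 within mitochondrial bins and 66 without the cells highest in Gata2 and Aqp3. The count lower, 41, became 95, 11 and 70 under the first 3, 27 for the top 30% of cells, 22 with split UMIs, 24 without Eprn in the score, 24 within mitochondrial bins and 11 without the Gata2 and Aqp3 cells. The last 2 settings, and the list sums without Dppa5a, Spp1 or Nupr1, were chosen after seeing the data. Of the 113 higher genes, 40 were among the 68 called with split UMIs and 18 among the 61 called after thinning; of the 41 lower, 21 were among the 22 and 17 among the 32. The formative ratio, 0.29, was 0.19 with median-ratio scaling, 0.17 after thinning, 0.22 with split UMIs and 0.21 without the Gata2 and Aqp3 cells. The naive ratio, 0.011, changed sign to -0.088 with median-ratio scaling, -0.0037 without cells under 0.5% mitochondrial UMIs, -0.0025 within mitochondrial bins and -0.014 without the Gata2 and Aqp3 cells. It was 0.049 for the top 30%, 0.051 after thinning, 0.025 with split UMIs, 0.026 by mean rank, 0.03 without the 20% highest in G2/M genes, and 0.033, 0.045, 0.023 and 0.043 without Lin28a, Tcf7l1, Tle4 and Eprn in the score. Krt8 reversed to 0.019 without cells under 0.5% mitochondrial UMIs. The core list, 0.035, reversed to -0.064 with median-ratio scaling, -0.017 for the top 10% and -0.021 without the Gata2 and Aqp3 cells, and the trophoblast list to 0.084 in the last of these. Of 1364 values of single genes and lists over all settings, 1061 moved by less than counting error, 298 moved by more and 5 reversed. The 1061 include the values at both other CPM minimums, which cannot change a ratio. The naive and formative lists are not in this tally. Esrrb, whose interval at -0.11 includes 0, also turned sign in 2 settings, to 0.012 by mean rank and 0.03 without Eprn in the score. The causes were not tested.

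Limits: 1 library per condition gives no measure of the spread between cultures. Members were chosen on a median of 5 UMIs, so the choice carries counting noise, most of all near the cut at 188. No paired analysis was possible because each condition has 1 library and no test was made.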

Other observations

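Imprinted genes were not among the lists described above. The 14 summed to 522 CPM in members and 452 in the other LBPXRS cells (0.21, interval 0.16 to 0.25). Of 5 measured, 1, Peg3, was at least 1.5-fold higher, against 2.31% of all genes. Peg3 was at 94.9 CPM in the LB top cells against 98.2 in the rest (-0.05). Snrpn, from the paternally expressed Prader-Willi region, was at 141 CPM in members against 105 (0.42) and at 377 against 264 in LB (0.51). Meg3, a maternally expressed noncoding RNA, was at 203 CPM against 176 (0.20) and at 906 against 582 in LB (0.64). The other 2 measured were on the low side, Phlda2 at 39.6 CPM against 49.3 (-0.31) and Impact at 35.1 against 40.5 (-0.20).

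The integrated stress response list summed to 1470 CPM in members against 1741 (-0.24, interval -0.27 to -0.22). None of 10 measured genes passed 1.5-fold, 4 were at least 1.25-fold lower and 1, Chac1, was that much higher at 32 CPM against 21.6 (0.54). Of all genes, 4.05% were that much lower and 15.7% higher. Nupr1, at 338 CPM against 489, gave most of the difference in the sums, and without it the ratio was -0.14 (-0.17 to -0.12). Within 10 bins of mitochondrial share the ratio of the whole list was -0.082, and after thinning -0.13. Among adhesion genes and immunoglobulin superfamily partners of Ptgfrn, the tetraspanin genes Cd9 and Cd81 were at 234 and 220 CPM against 294 and 277 (-0.33 each), and the integrin genes Itga6 and Itgb1 at 63.6 and 26 against 46.1 and 20 (0.45 and 0.36). The sum, 625 CPM against 710, was carried by the first 2, and the median over 5 measured genes was 0.11. The 406 barcodes left out of LBPXRS held 72 UMIs of the 5 genes, 98.9 CPM (77.3 to 124), against 113 (110 to 116) in the kept cells.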
